A study of Homo sapiens with 4 samples.

Results

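Sterol regulatory element-binding proteins (SREBPs) are transcription factors made as inactive precursors in the membrane of the endoplasmic reticulum, and 8 genes that process them, hold them back or move sterols are described here in RKO cells after CHD7 knockdown. The 8 genes are MBTPS1, MBTPS2, SCAP, SREBF1, SREBF2, INSIG1, INSIG2 and STARD4. They were found by gene symbol among the 15357 genes of the count and FPKM tables, and all 8 were among the 11955 genes tested. The genes were selected on their expression in this same comparison, above all on the low MBTPS1 RNA in the knockdown, so their own differences are given as a description with no test.

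When cholesterol in the endoplasmic reticulum is low, SCAP escorts the SREBP precursor to the Golgi, where site-1 protease and then site-2 protease cut it and release the active factor. INSIG proteins bind SCAP and keep it in the endoplasmic reticulum when sterols are abundant. The released SREBP-2 mainly raises genes of cholesterol synthesis and uptake, SREBP-1 mainly those of fatty acid synthesis. The question of the comparison was whether less MBTPS1 RNA, the message of site-1 protease, went with lower RNA of the genes that SREBPs are known to raise.

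RKO is a human colon cancer cell line, grown in medium with fetal bovine serum. For its mouse experiment the study describes RKO cells infected with lentivirus that expressed CHD7 or control hairpins. Poly(A) RNA-seq was available for 4 samples in 2 groups, 2 carrying the control vector and 2 carrying shCHD7_2, a short hairpin RNA against CHD7, the gene of a chromatin remodeller. Nothing in the labels marks the 2 samples of a group as separate cultures, so the errors and p-values measure only the spread between these samples. With 1 hairpin, loss of CHD7 and any other action of the hairpin cannot be told apart. The control samples are titled vector, whereas the study describes its control cells as expressing a control hairpin. Whether these controls carried a hairpin is thus not clear. In bulk RNA, fewer cells that express a gene and less RNA per cell cannot be told apart either.

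The estimated counts summed to between 15734679 and 16068650 per sample. CHD7 itself had 85.4 and 91.0 CPM (counts scaled to library size) in the vector samples and 55.5 and 50.1 CPM in the shCHD7_2 samples, and its log2 fold change was -0.74 with a standard error of 0.0884 and an edgeR adjusted p of 4.15e-06. Of 10 epithelial markers, EPCAM, KRT8, KRT18 and CDX2 passed the filter on low counts, with between 4.58 and 65.62 FPKM in every sample, while CDH1, KRT20 and LGALS4 were at or below 0.07 FPKM and KRT19, CDX1 and VIL1 were not listed. The summed epithelial level was 75.3 to 81.2 FPKM in the vector samples and 81.6 to 90.3 FPKM in the shCHD7_2 samples. KRT18 made up most of this sum, with 56.10 and 51.85 FPKM in vector and 58.47 and 65.62 FPKM in shCHD7_2 samples. KRT8 went the other way, with 13.35 and 12.29 FPKM in vector and 11.68 and 11.72 FPKM in shCHD7_2 samples. EPCAM and CDX2 overlapped between the groups in CPM, and none of the 4 tested markers had an edgeR adjusted p under 0.05. Of 10 fibroblast, immune and endothelial markers, only CD68 passed the filter, and the other 3 that were listed (COL1A1, LUM and PECAM1) were at or below 0.09 FPKM. CD68 encodes a lysosomal protein and had 495.0 to 529.5 FPKM in vector and 602.0 to 611.1 FPKM in shCHD7_2 samples, and its part in the results was not tested.

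MBTPS1 encodes site-1 protease, the serine protease of the Golgi that makes the first cut in the SREBP precursor (GRCh38 chr16:84053761-84116906, minus strand, GENCODE 29). Its level was 30.89 and 32.45 FPKM in the vector samples and 12.06 and 11.69 FPKM in the shCHD7_2 samples. The groups did not overlap, and both shCHD7_2 samples lay far below both vector samples. The mean was 31.7 ± 1.10 FPKM (SD, n = 2) in vector and 11.9 ± 0.262 FPKM (SD, n = 2) in shCHD7_2. In CPM the knockdown level was 36.6% of the vector level. The log2 fold change of MBTPS1 was -1.45, with a standard error of 0.0845 and a 95% interval from -1.62 to -1.27. Only 11 of the 11955 tested genes had a lower log2 fold change. The estimated counts behind it were 2056 and 2200 in vector and 805 and 786 in shCHD7_2, and the counts of all 8 genes were whole numbers in every sample, between 244 and 2200.

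**Figure D1:**
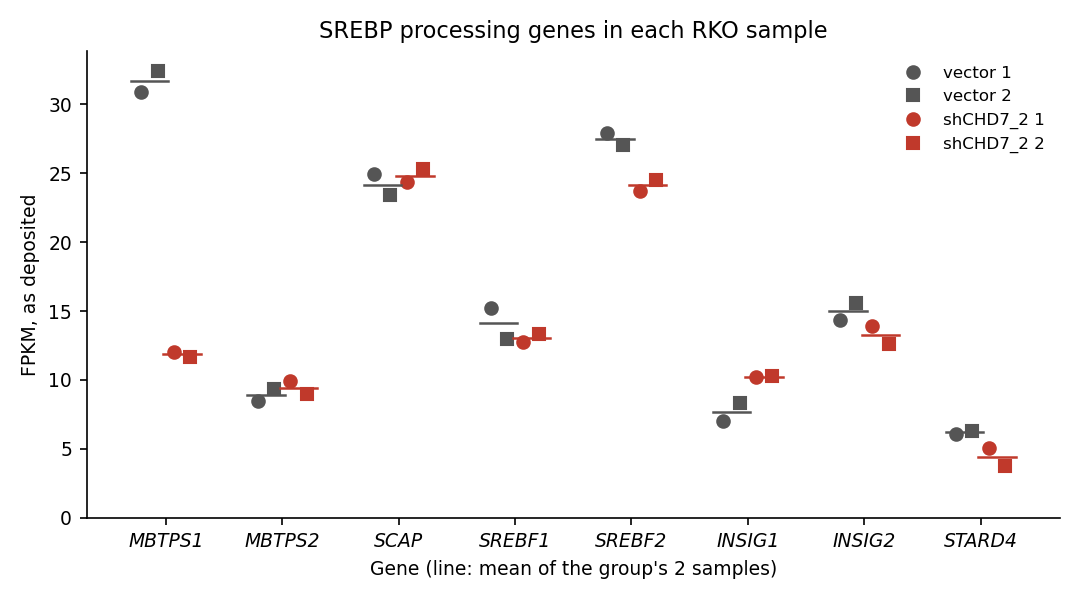
FPKM values (vertical axis, as deposited) of the 8 SREBP processing and uptake genes (horizontal axis) in each of the 4 RKO samples, with grey points for vector, red points for shCHD7_2, circles and squares for samples 1 and 2, and a line at each group mean. MBTPS1 stands apart, from above 30 FPKM in both vector samples to about 12 FPKM in both shCHD7_2 samples, while SCAP, MBTPS2 and SREBF1 overlap between the groups.

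MBTPS2 encodes site-2 protease, the metalloprotease that makes the second cut inside the membrane (chrX:21839636-21885424, plus strand). It had 8.44 and 9.36 FPKM in vector and 9.90 and 8.97 FPKM in shCHD7_2 samples, so the groups overlapped. Its log2 fold change was 0.04 (standard error 0.0954, 95% interval -0.16 to 0.24). The ratio of MBTPS1 to MBTPS2 in FPKM, a scale that allows for gene length, went from 3.66 and 3.47 in vector to 1.22 and 1.30 in shCHD7_2.

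SCAP, the escort that carries the precursor to the proteases, lies at chr3:47413694-47477126 on the minus strand. Its level was 24.92 and 23.42 FPKM in vector and 24.35 and 25.28 FPKM in shCHD7_2 samples, with overlap between the groups. The log2 fold change of SCAP was -0.0049, and its 95% interval ran from -0.17 to 0.16. SCAP had the third highest FPKM of the 8 genes in vector, where MBTPS1 was first, and the highest in shCHD7_2, where MBTPS1 was in place 5. Among all tested genes, MBTPS1 went from percentile 76.9 of mean FPKM to percentile 47.2, while SCAP stayed at 70.2.

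The genes of the transcription factors themselves differed less. SREBF2, the gene of SREBP-2 (chr22:41833079-41907308, plus strand), had 27.94 and 27.07 FPKM in vector and 23.72 and 24.53 FPKM in shCHD7_2 samples. Both knockdown samples were below both vector samples, at 85.3% of the vector level in CPM, with a log2 fold change of -0.23 (standard error 0.0782, 95% interval -0.39 to -0.07). SREBF1, the gene of SREBP-1 (chr17:17810399-17837002, minus strand), had 15.21 and 12.98 FPKM in vector and 12.79 and 13.33 FPKM in shCHD7_2 samples. Its groups overlapped, with the second vector sample between the knockdown samples, and its log2 fold change was -0.13 (standard error 0.0921, 95% interval -0.32 to 0.06). The ratio of SREBF2 to SREBF1 was 1.84 and 2.09 in vector and 1.85 and 1.84 in shCHD7_2, so the balance of the 2 factors' RNA overlapped between the groups.

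The INSIG genes went in opposite directions. INSIG1, which SREBPs are known to raise and whose protein retains SCAP (chr7:155297776-155310235, plus strand), had 7.02 and 8.31 FPKM in vector and 10.22 and 10.26 FPKM in shCHD7_2 samples. Both knockdown samples were above both vector samples, at 130.1% of the vector level in CPM, with a log2 fold change of 0.38 (standard error 0.106, 95% interval 0.16 to 0.60). The vector samples decided its size, since the log2 fold change was 0.50 without the second and 0.26 without the first. INSIG2, the relative that depends less on SREBPs (chr2:118088452-118110997, plus strand), had 14.33 and 15.61 FPKM in vector and 13.93 and 12.62 FPKM in shCHD7_2 samples. Its groups did not overlap, but the log2 fold change was only -0.20, with a standard error of 0.0981 and a 95% interval from -0.40 to 0.0023. In both groups INSIG1 stayed below INSIG2 in FPKM, with a ratio of 0.490 and 0.532 in vector and 0.734 and 0.813 in shCHD7_2.

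STARD4 encodes a small soluble protein that carries cholesterol between membranes and is raised by SREBP-2 (chr5:111496033-111512590, minus strand). It had 6.06 and 6.33 FPKM in vector and 5.08 and 3.74 FPKM in shCHD7_2 samples. Both knockdown samples were lower, at 63.0% of the vector level in CPM, with a log2 fold change of -0.67 (standard error 0.114, 95% interval -0.90 to -0.43). The 2 shCHD7_2 samples were further apart than the 2 vector samples, and the log2 fold change was -0.80 without the first of them and -0.54 without the second. INSIG1 and STARD4, both known SREBP-2 outputs, thus moved apart: their FPKM ratio was 1.16 and 1.31 in vector and 2.01 and 2.74 in shCHD7_2.

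Set against all genes, 3 of the 8 had an edgeR adjusted p under 0.05, where 11.5% of the 11955 tested genes did. MBTPS1 and STARD4 were the 2 lower ones (background 6.54%) and INSIG1 the higher one (background 4.94%), and with DESeq2 the higher one was no longer among them. The 2 lower genes also exceeded a fold change of 1.5, as 1.37% of tested genes did, and no member did so on the higher side, where the share was 1.51%. In 4 of the 8 genes both shCHD7_2 samples lay below both vector samples, and in 1 above, against 27.3% and 26.4% of all tested genes. Since the genes were chosen by this comparison, nothing is read from these counts. The median log2 fold change of the 8 genes was -0.16, and it was -0.13 without MBTPS1, beside a median of 0.00056 over all tested genes. Scaling the libraries by their totals moved the calls over all genes from 782 lower and 591 higher to 608 lower and 878 higher, and of the 8 genes only SCAP and MBTPS2 had log2 fold changes on both sides of 0 over the alternatives tried.

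Promoters were taken from RefSeq (GRCh38.p14) for all 8 genes, from 250 bases before to 50 bases after a RefSeq start. These starts can differ from the GENCODE gene coordinates given above, and INSIG2 had more than 1 window. The SCAP window, chr3:47475892-47476191, lay inside the gene as placed above. All windows were searched on both strands for a sterol regulatory element, written TCACNCCAC, and for a CCAAT box, written CCAAT. The CCAAT box is the site of NF-Y, a factor that acts together with SREBPs. The SREBF2, INSIG1 and STARD4 promoters are shown because these genes are known to respond to SREBPs or to encode one, and capitals mark every match on either strand (ATTGG is CCAAT on the other strand). They lie at chr22:41832855-41833154 (plus strand), chr7:155297628-155297927 (plus strand) and chr5:111512486-111512785 (minus strand).
SREBF2 promoter: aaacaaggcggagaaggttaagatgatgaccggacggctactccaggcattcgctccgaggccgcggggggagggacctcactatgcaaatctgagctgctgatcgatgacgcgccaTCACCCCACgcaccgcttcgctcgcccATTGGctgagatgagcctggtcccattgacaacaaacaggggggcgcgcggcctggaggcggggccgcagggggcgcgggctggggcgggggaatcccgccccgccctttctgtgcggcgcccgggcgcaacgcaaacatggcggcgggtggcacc
INSIG1 promoter: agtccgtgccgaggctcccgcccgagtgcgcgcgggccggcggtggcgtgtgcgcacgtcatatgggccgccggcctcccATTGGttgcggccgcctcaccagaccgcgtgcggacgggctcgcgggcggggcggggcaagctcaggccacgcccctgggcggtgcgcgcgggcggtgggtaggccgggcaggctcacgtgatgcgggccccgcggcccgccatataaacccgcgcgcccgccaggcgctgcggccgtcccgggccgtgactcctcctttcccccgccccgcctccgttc
STARD4 promoter: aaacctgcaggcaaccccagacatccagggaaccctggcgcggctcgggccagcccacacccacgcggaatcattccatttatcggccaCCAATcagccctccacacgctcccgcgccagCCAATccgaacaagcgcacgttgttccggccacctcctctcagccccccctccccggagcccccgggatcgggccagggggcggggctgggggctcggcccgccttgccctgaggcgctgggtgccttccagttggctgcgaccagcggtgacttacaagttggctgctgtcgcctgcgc
SREBF2 was the 1 gene of the 8 with a match to TCACNCCAC in this window. The match lay 133 bases before its start and was followed by a CCAAT box 106 bases before the start. Of 35116 RefSeq promoters of this length, 1.13% hold such a match. Other spellings of the element and positions outside the window were not searched. INSIG1 had a CCAAT box 170 bases before its start and STARD4 had them 161 and 130 bases before its start, and 34.6% of the promoters hold at least 1. MBTPS1, MBTPS2, SCAP, SREBF1 and INSIG2 held neither set of letters in the windows searched.

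The 3′ UTRs were searched for 3 words of 7 bases, which are AGCTATT, then GAAGCTA, and lastly GCTATTA, and which an earlier scan of these same 4 samples had picked because genes with lower RNA often carried them, so their presence in a lower gene is no independent evidence. For each gene the transcript with the longest coding sequence in GENCODE 29 was used. The matches in MBTPS1, MBTPS2 and STARD4, the 3 genes of the 8 that had any, are shown with their surroundings, 26 bases in the direction of the transcript with the word in capitals. In MBTPS2 the second and the first of these words overlap in 1 run of 9 capitals. Those of MBTPS1 (chr16:84054001-84054026, minus strand) and MBTPS2 (chrX:21883893-21883918, plus strand) come first, and those of STARD4, on the minus strand, lie at chr5:111498364-111498389, chr5:111497055-111497080 and chr5:111496424-111496449.
MBTPS1 3′ UTR: ttggaagcaaAGCTATTttttttgtc
MBTPS2 3′ UTR: ggccagtgtGAAGCTATTggtcctag
STARD4 3′ UTR, site 1: tactataaggGCTATTAtttcctgaa
STARD4 3′ UTR, site 2: agtatatagtAGCTATTttttaagga
STARD4 3′ UTR, site 3: cagaactagaGAAGCTAagggcttga
The match in MBTPS1 starts at base 433 of a 3′ UTR of 683 bases, and 6.76% of tested genes whose 3′ UTR is within 20% of that length hold at least 1 of the words. STARD4 holds all 3 words in a 3′ UTR of 3853 bases, a length at which 44.0% of genes hold 1 or more. MBTPS2 holds a run with both words at base 1247 of 2769, and 35.0% of genes of similar length hold a word. Over all 11693 tested genes with a 3′ UTR, the share was 18.9%. The matches of MBTPS2 depend on the transcript chosen. In the transcript with the longest 3′ UTR, an alternative tried after the data were seen, MBTPS2 had no match and SREBF2 had 1, while the transcripts and matches of MBTPS1 and STARD4 stayed as given.

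The cholesterol synthesis enzymes, the main outputs of SREBP-2, showed no common decrease beside the lower MBTPS1. All 21 listed enzymes were tested, 1 fell, 1 rose and 19 did not pass the edgeR test at an adjusted p of 0.05, with a median log2 fold change of 0.05. Over all tested genes, 6.54% were lower and 4.94% higher past this threshold. Their summed level was 529.2 and 534.2 FPKM in vector and 541.2 and 554.5 FPKM in shCHD7_2 samples. For all 21 enzymes the 95% interval of the difference lay above a 1.5-fold decrease, and for 20 it also lay below a 1.5-fold increase. HMGCS1, the synthase that makes HMG-CoA early in the pathway, had 35.7 and 34.7 CPM in vector and 34.7 and 34.3 CPM in shCHD7_2 samples, a log2 fold change of -0.03 (95% interval -0.22 to 0.17, edgeR adjusted p = 0.891). SQLE, the epoxidase that oxidises squalene, had a log2 fold change of -0.03 (95% interval -0.20 to 0.14, edgeR adjusted p = 0.88).

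**Figure D2:**
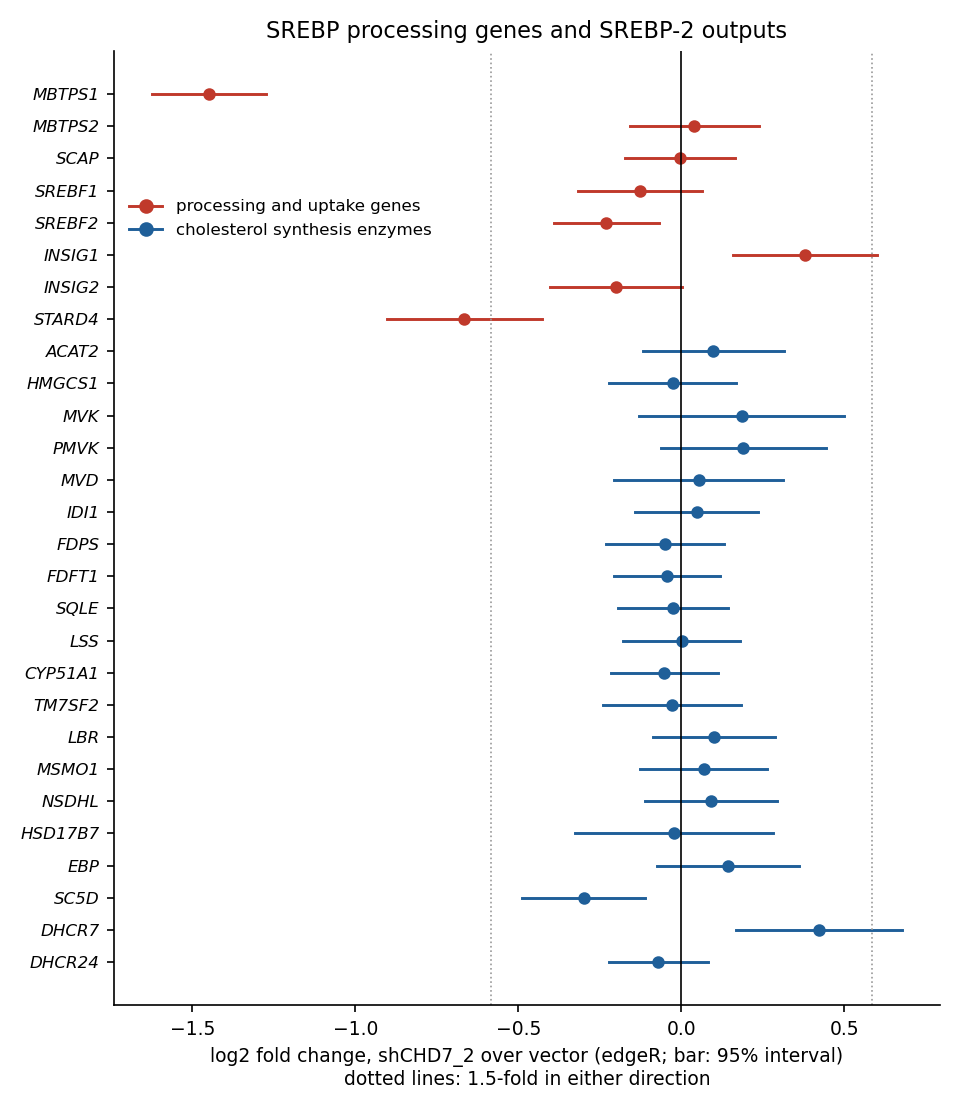
log2 fold changes of shCHD7_2 over vector from edgeR (horizontal axis; points, with bars for 95% intervals) for the 8 processing and uptake genes (red), cholesterol synthesis enzymes (blue), 1 gene per row, with dotted lines at 1.5-fold in either direction. MBTPS1 at -1.45 and STARD4 at -0.67 lie outside the dotted lines, and the interval of INSIG1 extends above 1.5-fold higher. The intervals of the enzymes shown stay between the dotted lines, except that of DHCR7, which extends above 1.5-fold higher.

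The 2 enzymes past the threshold act near the end of the pathway and went in opposite directions. SC5D, the lathosterol desaturase, fell from 53.3 and 58.5 CPM to 47.2 and 43.6 CPM (log2 fold change -0.30, standard error 0.0907, edgeR adjusted p = 0.0333). DHCR7, the reductase that makes cholesterol from 7-dehydrocholesterol, rose from 13.5 and 14.8 CPM to 18.1 and 19.7 CPM (log2 fold change 0.42, standard error 0.123, edgeR adjusted p = 0.0273). Neither call was kept with DESeq2 (adjusted p = 0.125 for SC5D and 0.153 for DHCR7). Each was also lost in edgeR without the first vector sample (adjusted p = 0.0577 for SC5D and 0.216 for DHCR7), without the second vector sample (0.403 and 0.0773) and without the second shCHD7_2 sample (0.159 and 0.12).

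Genes of sterol uptake and intracellular transport showed no common decrease either. This list was drawn up by function and not by response to SREBPs, so its counts do not measure SREBP output alone. STARD4, which also carries sterols and was lower, was not in this list because it is 1 of the 8 genes described above. Of 19 listed genes 16 were tested, and 1 fell, none rose and 15 did not pass the edgeR test (background 6.54% lower and 4.94% higher), with a median log2 fold change of 0.03. At an unadjusted p under 0.05, 3 were higher and 3 lower, and DESeq2 called 1 lower and 0 higher. SOAT1, which esterifies cholesterol for storage, fell from 77.2 and 82.2 CPM to 67.5 and 58.0 CPM (log2 fold change -0.34, standard error 0.091, edgeR adjusted p = 0.0145). Its call was lost without the second vector sample (edgeR adjusted p = 0.191) and without the second shCHD7_2 sample (0.138).

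Fatty acid synthesis genes, the outputs linked to SREBP-1, went both ways. Of 18 listed genes 14 were tested, and the rest were too low to test or absent from the deposited genes. In edgeR 3 fell and 2 rose (6.54% and 4.94% over all genes). The balance turned to 1 lower and 2 higher with library totals, with DESeq2 and with limma on filtered log2 FPKM. SCD, the desaturase that makes oleate from stearate, fell from 359.0 and 371.1 CPM to 183.1 and 164.2 CPM, 47.6% of the vector level (log2 fold change -1.07, standard error 0.077, edgeR adjusted p = 1.53e-09). ELOVL6, an elongase acting in the same branch, fell by 0.27 on the log2 scale (edgeR adjusted p = 0.0279), and ACSS2, which makes acetyl-CoA from acetate, fell by 0.30 (adjusted p = 0.0317). In contrast FADS2, the desaturase of polyunsaturated fatty acids, rose by 0.44 on the log2 scale (edgeR adjusted p = 0.00427) and FASN, the fatty acid synthase, by 0.25 (adjusted p = 0.0332), the latter from 346.8 and 304.6 CPM to 381.5 and 394.6 CPM. SCD kept its edgeR call in each of the 4 fits that left out 1 sample, whereas ELOVL6 and ACSS2 each lost theirs without the first vector sample (edgeR adjusted p = 0.138 and 0.11) or the second (0.313 and 0.261). ELOVL6 also lost it without the second shCHD7_2 sample (edgeR adjusted p = 0.0845) and ACSS2 without the first (0.149). FADS2 lost its call without the second vector sample (edgeR adjusted p = 0.177), and FASN without the first vector sample (0.0506), the second (0.573) or the second shCHD7_2 sample (0.0522).

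Among 23 factors of SREBP escort and turnover, 3 rose (4.94% over all genes), 1 fell (6.54%) and 19 did not pass. The lower call was lost with library totals, with DESeq2 and with limma on filtered log2 FPKM, which gave 4, 3 and 4 higher. SPRING1, listed under its older symbol C12orf49, encodes a Golgi protein that site-1 protease needs for its activity, and rose from 61.1 and 61.2 CPM to 83.6 and 80.4 CPM (log2 fold change 0.42, standard error 0.0844, edgeR adjusted p = 0.00159). ERLIN2, a membrane scaffold of the endoplasmic reticulum that takes part in protein breakdown, rose by 0.37 on the log2 scale (edgeR adjusted p = 0.00814), a call lost without the first vector sample (adjusted p = 0.176). SEC23B, a coat protein of the vesicles that carry SCAP, rose by 0.25 (edgeR adjusted p = 0.0346), and AUP1, a factor of sterol-driven protein breakdown, fell by 0.27 (adjusted p = 0.0425). SEC23B lost its call when any 1 sample was left out (edgeR adjusted p from 0.0538, without the first shCHD7_2 sample, to 0.287, without the second vector sample), and AUP1 without the first vector (0.377), the second vector (0.106) or the first shCHD7_2 sample (0.192).

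Site-1 protease also cuts proteins outside the SREBP pathway, among them ATF6, the endoplasmic reticulum stress factor. The data hold RNA only, so whether these proteins were cut more or less was not measured. Of 9 listed genes of such substrates 7 were tested, and 2 rose and none fell (4.94% and 6.54% over all genes). At an unadjusted p under 0.05 in edgeR 0 were lower, and 0 were lower with DESeq2. CREB3L2, a membrane-bound transcription factor, rose from 162.1 and 159.3 CPM to 226.8 and 205.7 CPM (log2 fold change 0.43, edgeR adjusted p = 6.31e-04). GNPTAB, whose precursor is cut to give the enzyme that tags lysosomal proteins, rose by 0.38 on the log2 scale (edgeR adjusted p = 0.0147), a call lost without the first vector (adjusted p = 0.177) or the first shCHD7_2 sample (0.15). ATF6 had a log2 fold change of 0.0022, with a 95% interval from -0.16 to 0.17. Of 15 genes known to be raised by ATF6, 4 rose and none fell (4.94% and 6.54% over all genes), again with 0 lower at an unadjusted p under 0.05 and 0 lower with DESeq2. PDIA4, a protein disulfide isomerase, rose from 362.9 and 362.7 CPM to 479.0 and 462.4 CPM (log2 fold change 0.38, standard error 0.0707, edgeR adjusted p = 9.38e-04), a call kept in each of the 4 fits that left out 1 sample. The other 3 were HERPUD1 (log2 fold change 0.36), SDF2L1 (0.47) and MANF (0.26), which serve protein folding or breakdown in the endoplasmic reticulum. Their edgeR adjusted p was 0.00338, 0.00327 and 0.0316. HERPUD1 lost its call without the first vector sample (edgeR adjusted p = 0.0681) or the second (0.0614), SDF2L1 without the second (0.113), and MANF without the first (0.141), the second (0.396) or the second shCHD7_2 sample (0.0705). HSPA5, the main chaperone of this response, had 2124 and 2284 CPM in vector and 2303 and 2248 CPM in shCHD7_2 samples, and its log2 fold change of 0.05 (95% interval -0.09 to 0.18) did not pass the edgeR test (adjusted p = 0.721).

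**Figure D3:**
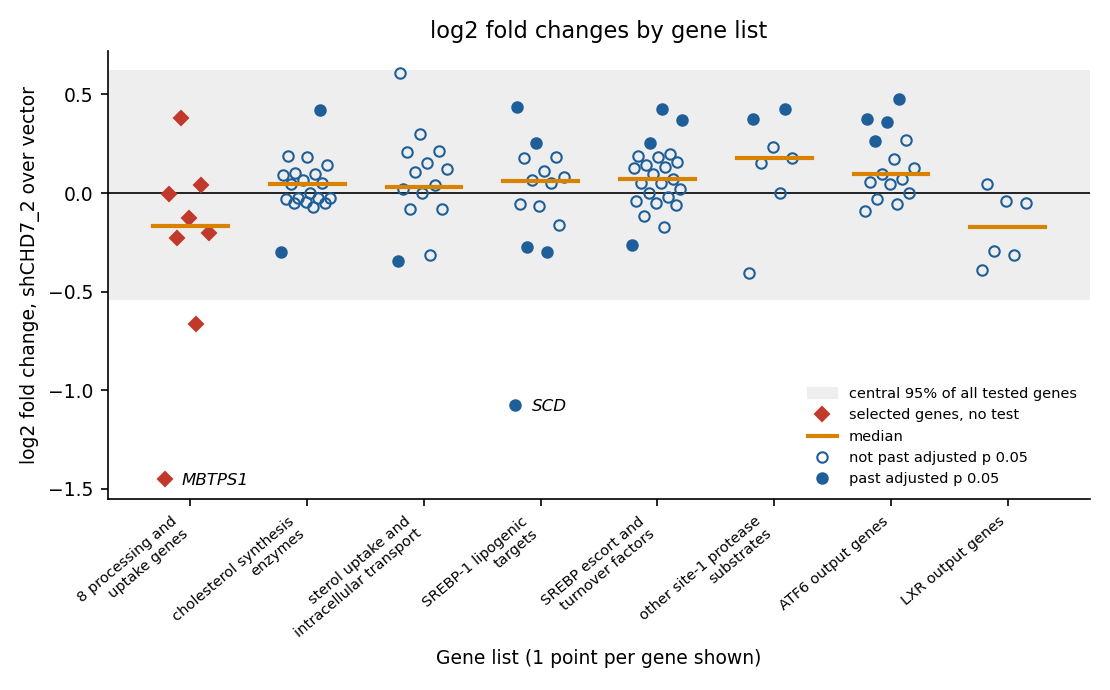
log2 fold change of shCHD7_2 over vector (vertical axis) for the 8 processing and uptake genes (red diamonds) and the tested genes of 7 gene lists that are reported here (blue circles, filled where the edgeR adjusted p was under 0.05), with orange lines at the medians of all tested genes of a list and a grey band for the central 95% of all tested genes. MBTPS1 and SCD lie far below the band and STARD4 just below it, while list medians stay between -0.17 and 0.18. The list labelled LXR output genes also holds the genes of the LXR receptors.

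The 3 genes whose pattern over the 4 samples was nearest to that of MBTPS1, by Euclidean distance between centred log2 CPM values, were DEGS1, BORCS8-MEF2B and ANXA1. DEGS1, the desaturase that makes ceramide from dihydroceramide, was the nearest at a distance of 0.0601, with 53.20 and 55.03 FPKM in vector and 21.16 and 21.20 FPKM in shCHD7_2 samples. BORCS8-MEF2B, at a distance of 0.105, is a read-through gene with 29.1 and 34.17 estimated counts in vector and 11.45 and 10.93 in shCHD7_2 samples, so its value depends on how reads were divided between overlapping genes. ANXA1, a phospholipid-binding protein, was at a distance of 0.116, with 34.88 and 35.98 FPKM in vector and 14.80 and 14.02 FPKM in shCHD7_2 samples. The log2 fold changes were -1.40 for DEGS1, -1.54 for BORCS8-MEF2B and -1.34 for ANXA1, and with 4 samples in 2 groups the measure mostly compares the size of the group difference.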

How the data were processed

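Poly(A) RNA-seq was analysed for 2 vector and 2 shCHD7_2 samples of RKO cells, grouped by the deposited labels. The authors deposited estimated counts per gene, not normalized, and FPKM values, which they normalized for gene length and library size. Per the labels, the submitters' processing notes name Bowtie2, RSEM, DESeq2 and hg38. Versions and annotation are not given in the sources used here. Between 13.6% and 14.7% of count values per sample were not whole.

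Counts were rounded, filtered with filterByExpr, scaled by TMM and tested with edgeR 4.0.16 (quasi-likelihood, Benjamini-Hochberg over 11955 genes) in R 4.3.3. Standard errors came from the F statistic, CPM used TMM-scaled libraries, and the biological coefficient of variation was 0.0579. Fits were tested on simulated data. Gene rows were keyed by identifier, since symbols such as 1-Mar are written as dates. The gene lists were written from general knowledge, and the 8 genes and the lists were chosen with earlier results of these data known. The genes named were the 8, CHD7, HMGCS1, SQLE, FASN, SCD and HSPA5, up to 4 called genes per list and direction without overlap between groups, and the 3 nearest to MBTPS1. Some genes that the rule covers are not reported here. ATF6, CD68 and the other markers were named as list members outside that rule. Alternatives were DESeq2 1.42.0 or its size factors, library totals, other filters, limma 3.58.1 on log2(FPKM + 1) or log2(FPKM + 0.1), a replicate block and leaving out each sample. The closing section gives their effect.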

Additional observations from a re-analysis of the deposited data

How the results depend on the processing

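Of the 8 genes, MBTPS1, STARD4, SREBF1, SREBF2, INSIG1 and INSIG2 kept the direction of their log2 fold change under all 14 alternatives, and MBTPS2 (-0.04 to 0.12) and SCAP (-0.04 to 0.04) lay on both sides of 0. MBTPS1 was -1.41 with library totals, -1.41 with limma on log2(FPKM + 0.1), -1.34 with limma on log2(FPKM + 1), with the filter or with none, and -1.49 to -1.41 when 1 sample was left out. STARD4 ranged from -0.80 to -0.42, INSIG1 from 0.26 to 0.50, INSIG2 from -0.27 to -0.14, SREBF1 from -0.23 to -0.02 and SREBF2 from -0.26 to -0.18.

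The number of genes past an adjusted p of 0.05 was 1373, and 800 with DESeq2, 197 in edgeR with no filter on low counts, 24 with limma on log2(FPKM + 1) with no filter, and 610 (without the second vector sample) to 1702 (without the first shCHD7_2 sample) when 1 sample was left out. It was 818 without the first vector sample. With a fold of 1.5 it was 344, and 219 with DESeq2, 141 with no filter, 172 with limma on log2(FPKM + 1) and 23 with that fit and no filter. Which step in each alternative moved these counts was not tested.

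Of the cholesterol synthesis enzymes, the 1 lower call became 0 with library totals, DESeq2, no filter and each of the 3 limma fits, and the 1 higher call became 0 with DESeq2, no filter and limma with no filter, with 0 to 1 of each when 1 sample was left out. Of the sterol uptake and transport genes, the 1 lower call became 0 with no filter and each of the 3 limma fits, and the 0 higher calls became 2 with library totals and 1 with limma on log2(FPKM + 1) or log2(FPKM + 0.1), with 0 to 1 of each when 1 sample was left out. HMGCS1, SQLE and HSPA5 passed the threshold under none of the 14 alternatives (adjusted p from 0.398 to 0.987 in edgeR, DESeq2 or limma).

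Both groups share replicate numbers, and the distances of equally numbered samples to their own group means correlated at -0.198 across genes. Equally numbered samples thus did not deviate alike. In a group of 2 the distances mirror each other, so unlike-numbered samples correlated at the same size with a positive sign. Neither value can settle whether samples were handled in pairs, which the labels do not say. The main fit held no pairing. With a replicate block, 755 genes passed the threshold, 0 cholesterol synthesis enzymes were lower and 0 higher, and 0 uptake and transport genes were lower. Of the genes called in the text, SC5D, DHCR7, ACSS2, AUP1, ELOVL6, GNPTAB and PCSK7 lost their call both with DESeq2 and with the replicate block, and SOAT1, FASN, ERLIN2, SEC23B and MANF with the block alone of these. A crossed pairing, chosen after seeing the data, gave 3751 genes, with 2 uptake and transport genes lower and 2 higher. Leaving out a sample leaves the other of its group alone, and it was assumed to vary like the other group. No group has enough samples for a search for outlying samples.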

Other observations

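Site-1 protease belongs to the proprotein convertases, a family of serine proteases that cut precursor proteins, and 6 of the 8 other listed members were tested. PCSK7, a convertase of the Golgi and cell surface, rose from 36.8 and 36.7 CPM in vector to 44.5 and 46.8 CPM in shCHD7_2 samples (log2 fold change 0.31, standard error 0.0909, edgeR adjusted p = 0.0269), and 5 members did not pass (over all genes, 4.94% were higher and 6.54% lower). The PCSK7 call was lost with DESeq2 (adjusted p = 0.109), and in edgeR without the first vector sample (adjusted p = 0.156), the second vector sample (0.204) or the second shCHD7_2 sample (0.108). None fell past the threshold, where 2 were lower at an unadjusted edgeR p under 0.05 and 0 with DESeq2. FURIN, the widely expressed member, had 28.52 and 27.53 FPKM in vector and 31.83 and 33.56 FPKM in shCHD7_2 samples, without overlap, and a log2 fold change of 0.18 (edgeR adjusted p = 0.154). By FPKM, MBTPS1 was above FURIN in both vector samples and below it in both shCHD7_2 samples.

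LXR receptors sense oxysterols and raise genes of sterol efflux. The 8 listed LXR genes include those of the receptors themselves as well as genes that they raise. Of the 8, 6 were tested, and none rose or fell past the edgeR threshold (4.94% and 6.54% over all genes). The median log2 fold change of the tested genes, receptors included, was -0.17. At an unadjusted p under 0.05, 1 was lower and 0 were higher, and DESeq2 called 0. ABCA1, the cholesterol exporter, was low in every sample, between 0.18 and 0.29 FPKM, and its log2 fold change was -0.29 (standard error 0.26, 95% interval -0.83 to 0.25, edgeR adjusted p = 0.523). The genes FURIN and ABCA1 were named after their values were seen.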
